A study of Mus musculus with 4 samples.

Results

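The genes described here encode the machinery that starts and extends transcription: Mediator, RNA polymerases II and III, TFIID and the other general transcription factors, Integrator, and elongation factors. They were the 135 of 13658 rows of the authors' deposited comparison whose symbols matched the family names of this machinery. The pattern reads symbols only. RNA had been profiled in 4 samples of mouse embryos at the morula, the stage before the blastocyst cavity forms. All came from embryos labelled wild-type, injected at the 1-cell stage with 4 to 5 pL of siRNA at 100 µM and cultured to the morula stage. In 2 samples the siRNA was a pool against Nr1h2 (siNr1h2), the gene of the oxysterol receptor LXRβ, and in the other 2 it was a non-targeting pool (siNT). The number of embryos behind a sample is not given in the sources used here, nor whether replicates were separate injections, so the p-values cover only how these samples vary, which may be technical.

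To begin transcription, TFIID, which holds the TATA-binding protein TBP and its associated factors (TAFs), recognises the core promoter, and TFIIA, TFIIB, TFIIE, TFIIF and TFIIH complete the complex with RNA polymerase II. Mediator carries signals from DNA-bound activators, nuclear receptors among them, to that complex. NELF and DSIF then hold the polymerase shortly after the start, P-TEFb releases it, and Integrator cleaves nascent RNA, including that of small nuclear RNA genes. RNA polymerase III, which makes transfer RNA and 5S ribosomal RNA, has factors of its own.

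The deposited table gives, for each gene, a mean normalized count over all 4 samples, a log2 fold change of siNr1h2 over siNT with its standard error (SE) and a DESeq2 p-value. It gives no value per sample, so sample depths are unknown and neither the spread among replicates nor the overlap of the groups can be shown for any member. For the targeted transcript Nr1h2 the authors' deposited table gave -2.33 ± 0.19 (SE) on the log2 scale. All 11 listed marker genes of the morula and its first lineages had a row, whereas 2 of 8 cumulus and granulosa, 0 of 6 sperm and 2 of 6 blood genes did. The 2 cumulus genes summed to a mean normalized count of 4.84 in the authors' deposited table, too low to be given an adjusted p. The 2 blood genes summed to 44.2 and neither was called. Of the 11 morula genes, 1 was called, the epithelial keratin gene Krt8, lower by a log2 fold change of -0.50 per the authors' deposited table. The granulosa genes Fshr and Amh had no row, whereas Foxl2 and Cyp19a1 of the same list did, at mean normalized counts of 1.94 and 2.89. The protamine genes Prm1 and Prm2 had no row. The part of other cells in the members' values was not tested. In RNA from whole embryos, fewer cells of a type and less RNA per cell cannot be told apart.

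For most of the machinery (93 of 131 genes), the 95% interval of the siNr1h2 over siNT fold change lay inside 1.5 times either way. The share inside was 40.7% among all genes with an adjusted p. At mean normalized counts of at least 500 it was 83.1% for members and 86.4% for all genes. A gene was called at a Benjamini-Hochberg adjusted p under 0.05 in the authors' deposited table. Of the 135 members, 2 were called lower, 0 higher, 129 were not called, and 4 (Med9os, Polr3gl, Taf7l and Tcea2) had mean normalized counts too low to be given an adjusted p. The called genes were Ints12, an Integrator subunit, and Tbpl1, a relative of TBP. Their share, 1.53% of the 131 members with an adjusted p, stood near the 1.98% called among all 12069 genes tested (1.52% lower and 0.456% higher, both from the authors' deposited table), so the count is no result about this machinery.

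For 93 of the 131 members (71.0%) the 95% interval of the fold change lay wholly inside a change of 1.5 times in either direction, against 40.7% of all genes with an adjusted p. Where the mean normalized count reached 500 the order turned, with 64 of 77 members (83.1%) and 86.4% of all such genes inside it. The members had a median SE of 0.16 on the log2 scale and all genes one of 0.23, the members' median mean normalized count being 575 and that of all genes 201. For the other 38 members a change of 1.5 times lies within the interval. Over the 135 members the median log2 fold change by the authors' deposited table was -0.02, and over all genes it was 0.01. Centring on ribosomal protein genes moved each median by the same amount, -0.11, and the direction of a median that close to 0 depends on the scaling.

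**Figure D1:**
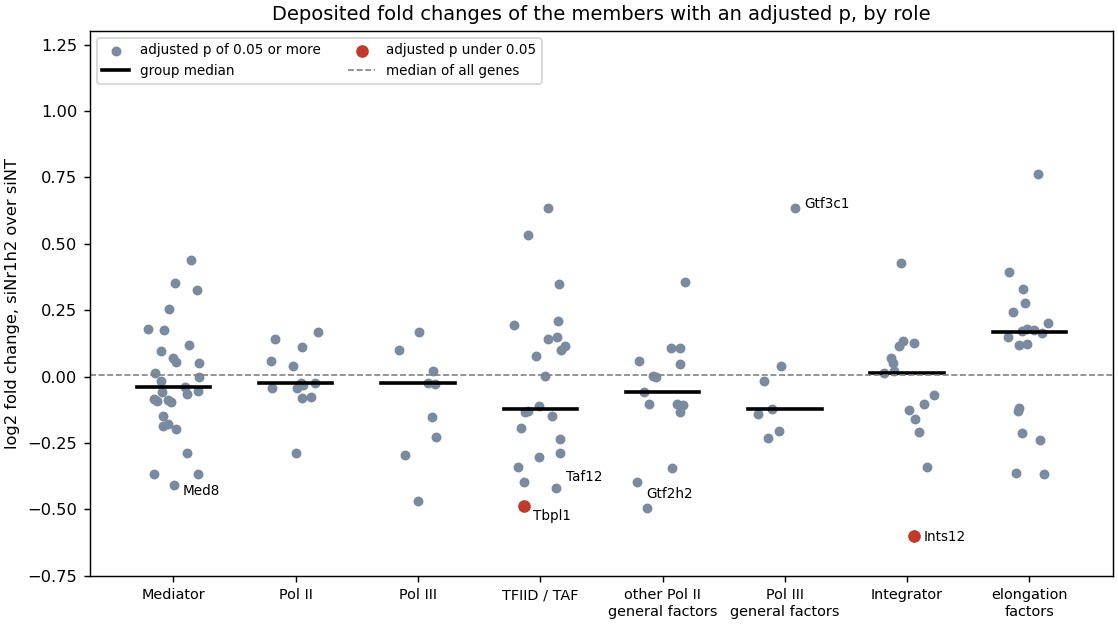
Log2 fold change of siNr1h2 over siNT (y axis) for the 131 members with an adjusted p, by role (x axis). Each point is 1 gene, spread sideways only for legibility, red points are the called genes Ints12 and Tbpl1, black bars are medians over every member of a role and the dashed line is the median of all genes at 0.01. Medians run from -0.12 for TFIID and for the polymerase III factors (0.01 for the latter without members that share exons or have near-identical copies) to 0.17 for elongation factors, and points of every role lie on both sides of 0.

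Of the 135 members, 112 had a promoter window in the RefSeq table (build GRCm38.p6) outside an excluded chromosome. The 150 bases upstream of the annotated start are shown for the members with an adjusted p under 0.1 that had one, namely Ints12, Tbpl1, Taf12, Gtf2h2 and Gtf3c1, because these carry the smallest p-values of the machinery. Med8, the other gene under 0.1, is named only. Capitals mark matches on either strand to any of 4 motifs. The TATA box, which TBP binds, was searched as TATAAA. The GC box, a site of Sp1-type factors, was searched as GGGCGG. The box bound by NF-Y was searched as CCAAT. The hexamer that nuclear receptors recognise was searched as AGGTCA. Each sequence runs 5′ to 3′ on the strand of its gene.
Ints12, chr3:133091705-133091854, plus strand: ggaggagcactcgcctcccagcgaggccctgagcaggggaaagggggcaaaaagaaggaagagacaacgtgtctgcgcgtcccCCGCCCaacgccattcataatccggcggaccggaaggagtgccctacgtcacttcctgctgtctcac
Tbpl1, chr10:22731448-22731597, minus strand: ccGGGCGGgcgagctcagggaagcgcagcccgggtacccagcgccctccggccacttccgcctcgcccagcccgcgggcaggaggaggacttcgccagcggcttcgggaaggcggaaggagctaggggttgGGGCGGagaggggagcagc
Taf12, chr4:132274225-132274374, plus strand: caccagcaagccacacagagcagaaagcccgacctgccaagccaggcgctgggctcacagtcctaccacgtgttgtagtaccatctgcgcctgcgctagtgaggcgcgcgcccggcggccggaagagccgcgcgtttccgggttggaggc
Gtf2h2, chr13:100492395-100492544, minus strand: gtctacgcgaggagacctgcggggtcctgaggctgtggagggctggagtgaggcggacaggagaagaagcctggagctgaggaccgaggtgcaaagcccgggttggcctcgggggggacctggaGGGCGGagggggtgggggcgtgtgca
Gtf3c1, chr7:125707689-125707838, minus strand: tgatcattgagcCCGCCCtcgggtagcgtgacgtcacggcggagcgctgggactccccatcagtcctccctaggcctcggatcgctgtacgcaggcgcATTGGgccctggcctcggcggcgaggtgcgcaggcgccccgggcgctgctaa

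These 5 upstream stretches were GC-rich, at 62.7% for Ints12, 75.3% for Tbpl1, 67.3% for Taf12, 70.0% for Gtf2h2 and 70.7% for Gtf3c1. A GC box stood in 4 of them, a CCAAT box in that of Gtf3c1, and the Taf12 stretch held none of these motifs. In windows of 300 bases (250 before to 50 after the start, both strands), AGGTCA occurred for 15 of 109 members with an adjusted p (13.8%) and for 14.8% of 9583 such genes in all. The GC box occurred for 72.5% of members and 68.2% of all genes, the CCAAT box for 39.4% and 43.7%, and the TATA box for 11.9% and 8.74%. A direct repeat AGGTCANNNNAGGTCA, the arrangement that LXR dimers favour, had no exact match in any of these windows. Motifs were counted separately, so matches may overlap. A match is a description of the letters and not of a bound site.

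Mediator was called in neither direction. Of its 31 rows, 30 had an adjusted p and all 30 were not called, and the authors' deposited table placed them between -0.41 and 0.44 (log2 fold change), the median of all 31 being -0.04. For 23 of the 30 the 95% interval stayed inside a change of 1.5 times. The remaining row, Med9os, is a transcript from the strand opposite Med9 that the family pattern caught and is no subunit. Unadjusted p-values under 0.05 belonged to 2 members, both below 0, where 7.31% of all genes were below and 5.97% above 0 at that threshold. Among all genes with mean normalized counts of at least 500 the shares were 10.8% and 4.07%.

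In the head, the module that contacts the polymerase, all 12 subunits were measured and 8 lay below 0. It was 6 once a trend on transcript length and GC content, fitted over all genes, was subtracted. Values described below as freed of the dependence on length and GC content, or without it, had this trend subtracted. Any dependence left among the members was not tested. Of all genes tested 49.4% lay below 0, and 57.9% of those with mean normalized counts of at least 500. Med8 had the smallest p-value of Mediator, at a log2 fold change of -0.41 ± 0.13 (SE; adjusted p = 0.0804) and a mean normalized count of 1323 in the authors' deposited table. Med27, a head subunit next to the tail, stood at -0.37 ± 0.15 (adjusted p = 0.240) in the authors' deposited table, and 11.6% of its exonic bases belong also to an antisense gene. Neither was called, and the 95% interval of Med8 ran from 1.11 to 1.59 times lower. Of the 9 subunits of the middle module 8 lay below 0, or 6 once the length and GC trend was subtracted. The authors' deposited table placed the 9 between -0.19 and 0.05, with the interval of each inside a change of 1.5 times. Among them were Med1, the subunit through which nuclear receptors commonly bind Mediator, at a log2 fold change of -0.02 ± 0.16, and Med14, the backbone of the complex, at -0.05 ± 0.18 in the authors' deposited table. Med10 was the most abundant middle subunit by count, at a mean normalized count of 13106, and stood at -0.19 ± 0.12 on the log2 scale in the authors' deposited table. Its exons share 90.9% of their bases with the non-coding gene Gm26819 of the opposite strand, and reads of the pair cannot be told apart without strand.

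The tail, which activators bind, had 4 of 5 subunits above 0, none called. Of the kinase module, 3 of the 4 members with a Med symbol lay above 0, none called. In the tail the authors' deposited table gave Med16 0.44 ± 0.29 (SE) and Med15 0.25 ± 0.17 on the log2 scale, and Med23 stood apart at -0.37 ± 0.19 (adjusted p = 0.396). In the kinase module, which holds Mediator away from the polymerase, Med12 stood at 0.35 ± 0.39, Med13l at 0.33 ± 0.20, Med12l at 0.05 ± 0.15 and Med13 at -0.15 ± 0.18 in the authors' deposited table. The kinase and cyclin genes of this module, which fall outside the symbol pattern, lay below 0, and none was called. Ccnc stood at -0.24 ± 0.14, Cdk19 at -0.23 ± 0.21 and Cdk8 at -0.11 ± 0.15 in the authors' deposited table. The median was 0.19 for the 4 kinase module members with a Med symbol and 0.17 for the tail, from the authors' deposited table. Centred on ribosomal protein genes these medians were 0.08 and 0.07, and without the dependence on length and GC content 0.18 and 0.07. That centring left 2 of 4 kinase and 3 of 5 tail subunits above 0.

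RNA polymerase II was the group measured most tightly, and none of its 13 genes was called. The authors' deposited table placed them between -0.29 and 0.17 (log2 fold change; median -0.02), and 12 of 13 intervals lay inside a change of 1.5 times. Polr2a, the catalytic subunit with the heptad-repeat tail, stood at -0.08 ± 0.15 (SE), and Polr2b, its partner in the active site, at 0.04 ± 0.12 in the authors' deposited table. Polr2d, which forms the stalk with Polr2g, was the lowest at -0.29 ± 0.14 (adjusted p = 0.337), while Polr2g stood at -0.02 ± 0.13 in the authors' deposited table. The 5 subunits shared with polymerases I and III (Polr2e, Polr2f, Polr2h, Polr2k and Polr2l) lay between -0.03 and 0.17. Polr2k was the exception in precision, with an SE of 0.34 at a mean normalized count of 5031 in the authors' deposited table, where the other 12 had SEs between 0.11 and 0.15. A transcript of Gm46136 matched Polr2k at 96.4% identity over 67.5% of its length, so its reads may be split, and whether this bears on the SE was not tested. Polr2m, whose product Gdown1 makes the polymerase depend on Mediator, stood at -0.04 ± 0.13 in the authors' deposited table.

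RNA polymerase III had 10 rows, of which 9 had an adjusted p and none was called. The authors' deposited table placed the 9 between -0.47 and 0.17 (log2 fold change), and the median of the 10 was -0.03. The catalytic core genes Polr3a (0.17 ± 0.18, SE) and Polr3b (0.10 ± 0.20) lay above 0 on the log2 scale in the authors' deposited table. The initiation subunits Polr3c, at -0.47 ± 0.28 (adjusted p = 0.475), and Polr3f, at -0.29 ± 0.16 (adjusted p = 0.422), lay below 0 in the authors' deposited table. The third subunit of that subcomplex has alternative forms, Polr3g and Polr3gl. Polr3g, the form known from pluripotent cells, stood at -0.23 ± 0.13 with a mean normalized count of 2310, and Polr3gl, with a mean of 2.29, was given no adjusted p by the authors' deposited table.

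TFIID and related genes held the smallest share of narrow intervals. Of 24 rows, 23 had an adjusted p, 1 was lower (Tbpl1) and 22 were not called. Inside a change of 1.5 times lay 11 of 23 intervals. Without the genes of other complexes and families that carry a TAF name it was 10 of 17 (58.8%). That share is near the 57.9% of elongation factors. The authors' deposited table gave the 24 a median log2 fold change of -0.12, which was -0.04 without the dependence on transcript length and GC content. Tbpl1, also known as TRF2, is a TBP relative that does not bind the TATA box and has a role in male germ cells. It was 1.40 times lower in siNr1h2 (95% interval 1.15 to 1.70). The authors' deposited table gave it -0.49 ± 0.14 (SE) on the log2 scale, an adjusted p of 0.0415 and a mean normalized count of 772. That call did not hold when fold changes were centred on genes with mean normalized counts of at least 500 (log2 fold change -0.45, adjusted p = 0.0723) or freed of their dependence on length and GC content (-0.41, adjusted p = 0.138), the adjusted p ranging from 0.00311 to 0.138 over 3 such scalings.

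Tbp itself stood close to Tbpl1 in size of change, at -0.40 ± 0.15 (SE; adjusted p = 0.159) in the authors' deposited table, and was not called. Several TAFs pair through histone folds to build the TFIID core, and 3 of these (Taf12, Taf9 and Taf6) had unadjusted p-values under 0.05. Taf12 stood at -0.42 ± 0.13 (adjusted p = 0.0640), and its partners Taf4 and Taf4b at 0.08 ± 0.24 and -0.13 ± 0.14 in the authors' deposited table. Taf9, at -0.34 ± 0.14 (adjusted p = 0.210), pairs with Taf6, which stood at 0.35 ± 0.15 (adjusted p = 0.283) in the authors' deposited table. For Taf9 and Taf6 the values are uncertain, since 98.5% of the Taf9 exonic bases belong also to Ak6 on the same strand, and 39.2% of those of Taf6 to Ap4m1 on the opposite strand. Ak6 had a log2 fold change of -0.27 ± 0.12 and Ap4m1 one of 0.23 ± 0.40 in the authors' deposited table.

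Taf1, the largest TFIID subunit, and Taf7, which binds and restrains it, stood at -0.11 ± 0.14 (SE) and -0.24 ± 0.12 (adjusted p = 0.356) in the authors' deposited table. Taf13 and Taf11, another histone-fold pair, stood at -0.15 ± 0.14 and 0.19 ± 0.16, and Taf10, shared with the coactivator SAGA and overlapping Ilk over 49.2% of its exonic bases, at 0.11 ± 0.13 in the authors' deposited table. At an unadjusted p under 0.05 were 5 members of this group below 0 and 1 above, or 21.7% and 4.35% of 23, where all genes gave 7.31% and 5.97%. All genes with mean normalized counts of at least 500 gave 10.8% and 4.07%, and the median of that count over the 23 was 559. Taf9, among the 5, and Taf6, the 1 above, share exons with other genes. Genes of other complexes that carry a TAF name did not pass either. They were Taf1b, Taf1c and Taf1d of the polymerase I factor SL1 (-0.29, 0.21 and -0.13), Taf5l and Taf6l of SAGA (-0.30 and 0.53), and the RNA-binding gene Taf15 (0.63 ± 0.57 at a mean normalized count of 22.7) in the authors' deposited table.

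**Figure D2:**
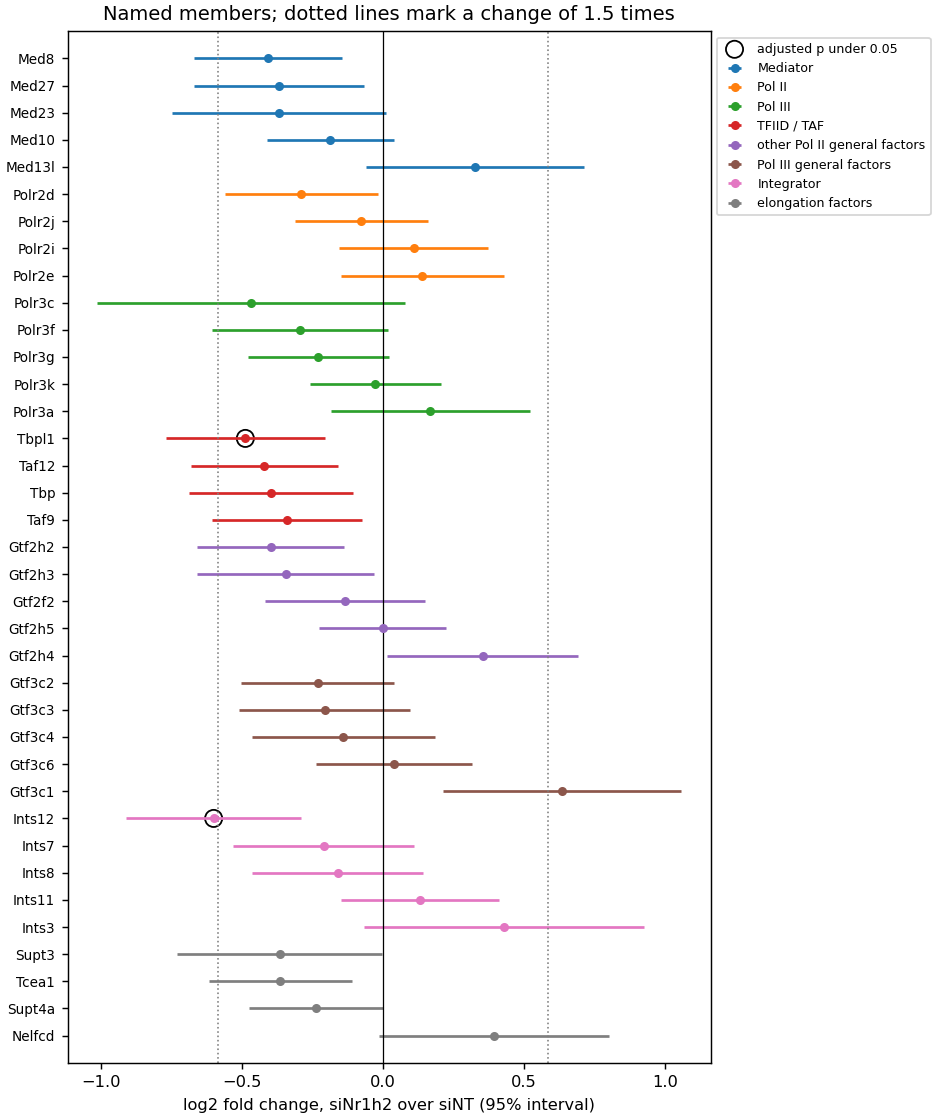
Log2 fold change of siNr1h2 over siNT with its 95% interval (x axis) for the named members (y axis), coloured by role; circles mark the called genes and dotted lines a change of 1.5 times. The intervals of Ints12 and Tbpl1 lie wholly below 0, as do those of uncalled members such as Taf12, Tbp, Med8 and Gtf2h2, and that of Gtf3c1 lies wholly above 0 with a point estimate of 0.64.

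The other general factors of polymerase II had no called gene among 15, and the authors' deposited table placed them between -0.50 and 0.35 (log2 fold change; median -0.06). TFIIH, which opens the promoter and repairs DNA, held the genes with the smallest p-values and they diverged. Gtf2h2 and Gtf2h3, whose proteins contact each other in the TFIIH core, stood at -0.40 ± 0.13 (SE; adjusted p = 0.0905) and -0.34 ± 0.16 (adjusted p = 0.311) in the authors' deposited table. Gtf2h4, which anchors the XPB helicase, stood at 0.35 ± 0.17 (adjusted p = 0.349), and the small subunit gene Gtf2h5, the most abundant of the group by count, at 0.00 ± 0.12 with a mean normalized count of 7938 in the authors' deposited table. TFIIB (Gtf2b, -0.10 ± 0.13) and the TFIIA genes Gtf2a1 (0.05 ± 0.15) and Gtf2a2 (0.11 ± 0.13) lay near 0 on the log2 scale in the authors' deposited table. So did the TFIIE genes Gtf2e1 (-0.10 ± 0.16) and Gtf2e2 (0.00 ± 0.14) and the TFIIF genes Gtf2f1 (0.06 ± 0.18) and Gtf2f2 (-0.13 ± 0.14) in the authors' deposited table. The interval of each of these 7 genes lay inside a change of 1.5 times.

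Polymerase III factors comprised 7 genes, none called, whose median log2 fold change by the authors' deposited table was -0.12. Without members that share exons or have near-identical copies (Gtf3a, Gtf3c2 and Gtf3c3) it was 0.01, on the other side of 0. Gtf3c1, the largest subunit of TFIIIC, which binds the internal promoter of transfer RNA genes, stood highest among all members with a mean normalized count above 100. Its log2 fold change was 0.64 ± 0.22 (SE; 1.55 times, 95% interval 1.16 to 2.08), with an adjusted p of 0.0993 and a mean normalized count of 217 in the authors' deposited table. The other TFIIIC genes did not stand with it. Gtf3c2 (-0.23 ± 0.14), Gtf3c3 (-0.21 ± 0.15), Gtf3c4 (-0.14 ± 0.17) and Gtf3c5 (-0.02 ± 0.22) lay below 0 and Gtf3c6 (0.04 ± 0.14) above it on the log2 scale in the authors' deposited table. Gtf3a, the zinc finger factor TFIIIA of 5S genes, stood at -0.12 ± 0.17 in the authors' deposited table, with 64.1% of its exonic bases shared with Mtif3. For Gtf3c2 the shared part was 56.2%, with Gm29609.

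Integrator had 15 rows, of which 1 was lower (Ints12) and 14 were not called; the median log2 fold change by the authors' deposited table was 0.01. Ints12, a small subunit with a PHD finger, was 1.52 times lower in siNr1h2 (95% interval 1.22 to 1.88). Its log2 fold change of -0.60 ± 0.16 (SE) had an adjusted p of 0.0147, the smallest of all members, at a mean normalized count of 754 in the authors' deposited table. Once the dependence on length and GC content was removed the call was lost (log2 fold change -0.48, adjusted p = 0.0971), and over 3 scalings the adjusted p ran from 0.000961 to 0.0971. Ints1, the scaffold with which INTS12 associates, stood at 0.11 ± 0.19 in the authors' deposited table. The cleavage genes Ints11 (the endonuclease, 0.13 ± 0.14), Ints9 (0.02 ± 0.19) and Ints4 (0.07 ± 0.15) had log2 fold changes near 0 in the authors' deposited table, with intervals inside a change of 1.5 times. Of the Ints11 exonic bases, 26.3% belong also to Pusl1 on the opposite strand. Ints6 (-0.10 ± 0.16) and Ints8 (-0.16 ± 0.15), which recruit the phosphatase PP2A, did not pass either in the authors' deposited table. Ints3 stood at 0.43 ± 0.25 (adjusted p = 0.470) and Ints7 at -0.21 ± 0.16 in the authors' deposited table.

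Elongation factors had 20 rows, 19 of them with an adjusted p and none called, and their median log2 fold change, 0.17 by the authors' deposited table, was the highest of the 8 roles. Of the 19, 13 lay above 0, also after each of 3 scalings, though centring on ribosomal protein genes took the median to 0.06. Of all 12069 genes tested 6108 lay above 0. It was 6733 when centred on genes with means of at least 500 and 4391 when centred on ribosomal protein genes. All 4 NELF genes lay above 0 in the authors' deposited table, from Nelfb (0.12 ± 0.20, SE) and Nelfa (0.15 ± 0.18) to Nelfe (0.18 ± 0.15) and Nelfcd (0.39 ± 0.21, adjusted p = 0.399). So did the 3 genes of the PAF complex, which travels with the polymerase, that the symbol pattern matched. Ctr9 stood at 0.16 ± 0.17, Paf1 at 0.20 ± 0.19 and Leo1 at 0.33 ± 0.18 (adjusted p = 0.416) in the authors' deposited table. These 7 NELF and PAF genes kept that side of 0 under all 3 scalings, and none of the 7 passed the test. PAF complex genes outside the pattern were Rtf1 at 0.32 ± 0.15, Cdc73 at 0.02 ± 0.15 and Wdr61 at -0.20 ± 0.13 in the authors' deposited table. None of these was called, and their side of 0 under the scalings was not tested.

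The DSIF genes Supt4a and Supt5 stood on opposite sides of 0, at -0.24 ± 0.12 (SE; adjusted p = 0.376) and 0.12 ± 0.14 in the authors' deposited table. A Supt4b transcript matches Supt4a at 99.1% identity over 49.7% of its length, which makes the value of Supt4a uncertain. Histone chaperone genes lay above 0, with Supt6 at 0.17 ± 0.18 and the FACT gene Supt16 at 0.18 ± 0.14 in the authors' deposited table. The value of Supt16 is uncertain, since 22.6% of its exonic bases belong also to Rpgrip1 on the opposite strand. Rpgrip1 had a log2 fold change of 0.26 ± 0.18. Tcea1 encodes TFIIS, which rescues arrested polymerase. It had the smallest p-value of the group at -0.36 ± 0.13 (adjusted p = 0.126) in the authors' deposited table, with a near-identical pseudogene, Tcea1-ps1. The pattern also drew in Supt3, Supt7l and Supt20, which belong to SAGA, at -0.37 ± 0.18, 0.28 ± 0.20 and -0.12 ± 0.16 in the authors' deposited table. Of the super elongation complex genes, Ell2 stood at -0.13 ± 0.16, Ell at 0.24 ± 0.29 and Ell3, which shares 85.8% of its exonic bases with Serinc4, at -0.21 ± 0.25 in the authors' deposited table.

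Of 54 further genes of the same pathways, 52 had a row under the symbol listed, with the remaining pair of symbols being older names of Ints13 and Ints14. Of the 52, 1 was lower (1.92%), 0 were higher and 51 were not called. Nabp1, a single-stranded DNA-binding protein that partners INTS3, was 1.43 times lower (95% interval 1.20 to 1.70). The authors' deposited table gave it -0.52 ± 0.13 (SE) on the log2 scale and an adjusted p of 0.00838. Its adjusted p over 3 scalings ran from 0.000258 to 0.0925, the highest once the dependence on length and GC content was removed. Ccnt2, a cyclin of P-TEFb, stood at 0.52 ± 0.17 (adjusted p = 0.0722) and Snapc3, of the small nuclear RNA promoter factor, at -0.48 ± 0.16 (adjusted p = 0.0926) in the authors' deposited table. Over the 3 scalings the adjusted p of Ccnt2 ran from 0.0226 to 0.145 and that of Snapc3 from 0.0126 to 0.209. Ccnt2 was called higher when fold changes were centred on genes with means of at least 500 and when freed of the dependence on length and GC content, and Snapc3 lower when they were centred on ribosomal protein genes. Of TFIIH, the kinase gene Cdk7 stood at -0.29 ± 0.13 and the helicase gene Ercc2 at 0.96 ± 0.44, with a mean normalized count of 41.5, in the authors' deposited table.

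Levels of the members, as opposed to differences, were compared as the authors' mean normalized count per kilobase of transcript over all 4 samples. Polymerase II genes had the highest median, 2732 per kilobase, followed by other general factors of polymerase II (314), Mediator (272), TFIID and related genes (179), polymerase III factors (159), elongation factors (139), Integrator (105) and polymerase III (103). Within polymerase II the small subunit gene Polr2j stood at 11251 per kilobase and the catalytic Polr2a at 125. Of the Polr2j exonic bases, 27.2% belong also to Lrwd1 on the opposite strand. Within Mediator, Med10 stood at 14355 per kilobase, and the kinase subunit Med12 at 7.59. With no value per sample, the order of neighbouring levels was not tested.

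Related genes differed in level, and whether they can stand in for each other was not tested. Med12l exceeded Med12, at 67.3 and 7.59 normalized counts per kilobase, a ratio of 8.87, though 17.7% of the Med12l exonic bases belong also to Igsf10 on the opposite strand, a gene with a mean normalized count of 649. Taf4b, a form known from the germ line, stood at 205 per kilobase and the widespread Taf4 at 43.1. Polr3g stood at 757 per kilobase and Polr3gl at 1.60, and Taf7 at 1065 with its germ-line relative Taf7l at 3.43. Taf9 stood at 6595 per kilobase and Taf9b at 3.69. How reads of the exons that Taf9 shares with Ak6 were assigned is not known. Tcea1 stood at 799 per kilobase, against 17.0 for Tcea3 and 3.48 for Tcea2, and Ell2 at 154, against 83.5 for Ell3 and 30.2 for Ell. Tbpl1 and Tbp were closer, at 646 and 461 per kilobase. None of the pairs had a called member other than Tbpl1.

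**Figure D3:**
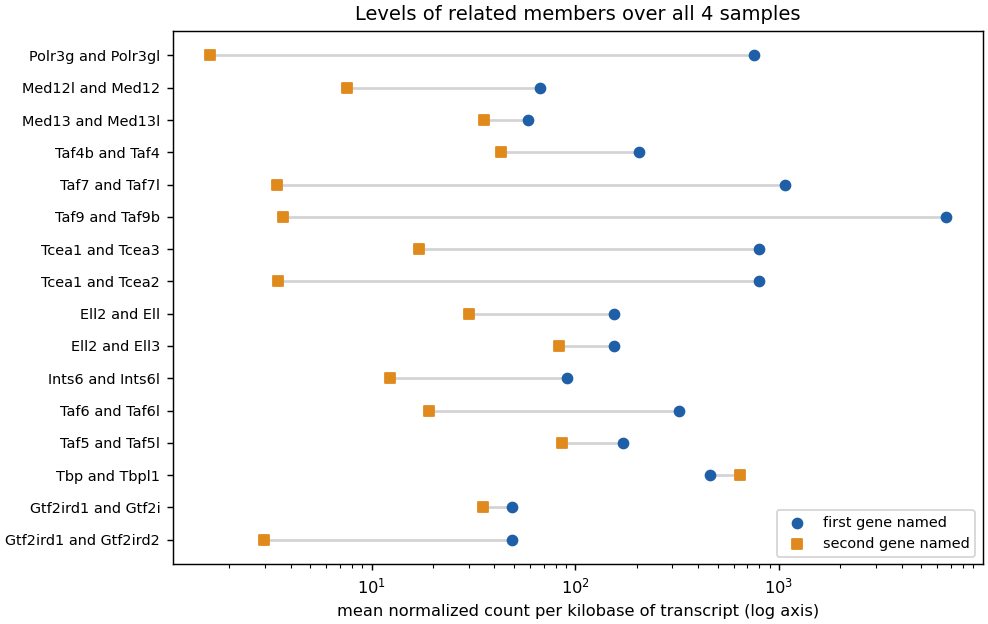
Mean normalized count per kilobase of transcript over all 4 samples (x axis, log scale) for pairs of related members (y axis); circles are the first and squares the second gene named, joined by a line. Polr3g and Polr3gl lie far apart, at 757 and 1.60 per kilobase, whereas Tbp and Tbpl1 lie close, at 461 and 646.

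The members' fold changes varied with the GC content of their transcripts. Over the 131 members with an adjusted p, Pearson's r between log2 fold change and GC content was 0.42 and Spearman's rho 0.43. Over 12000 genes of the whole table r was 0.18 and rho 0.22. At mean normalized counts of at least 100, r was 0.42 for 122 members and 0.25 for 7626 genes. The rho values there were 0.43 and 0.27. These are descriptions across genes, which share the 4 libraries and are not independent replicates. The 29 members with a GC content up to 45% had a median log2 fold change of -0.13, with 23 below 0, and the 28 above 55% a median of 0.12, with 23 above 0. Over all genes the same bins had medians of -0.08 and 0.11. Of the members with an unadjusted p under 0.05, all 3 above 0 (Taf6, Gtf2h4 and Gtf3c1) had a GC content above 55%, and none below 0 did. The Ints12 transcript had a GC content of 40.8% and that of Tbpl1 44.9%. With the log2 of transcript length the same members gave r = 0.10. The part of GC content in the calls was tested only by subtracting the length and GC trend of all genes, reported for Ints12, Tbpl1 and Nabp1. Whether that subtraction removed the members' own dependence on GC content was not tested.

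**Figure D4:**
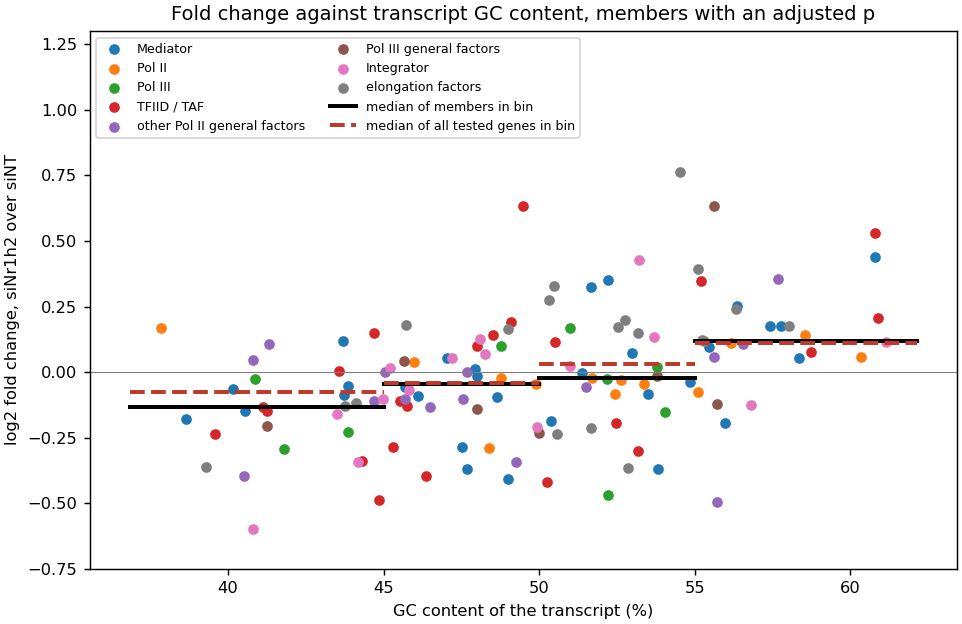
Log2 fold change of siNr1h2 over siNT (y axis) against GC content of the transcript in percent (x axis) for the 131 members with an adjusted p, coloured by role. Black lines are medians of the members and dashed red lines medians of all genes in 4 bins of GC content; the members' medians run from -0.13 at up to 45% to 0.12 above 55%.

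The 6 members on the X chromosome (Med12, Med14, Taf1, Taf7l, Taf9b and Ints6l) had no call, and the 5 with an adjusted p lay between -0.34 and 0.35 on the log2 scale in the authors' deposited table. In all, 24 members shared at least 10% of their exonic bases with another annotated gene and 11 had a near-identical transcript elsewhere, 32 members with either. Ints12 and Tbpl1 were in neither class. Without these 32, 2 of 99 members with an adjusted p were called, both lower.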

How the data were processed

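Polyadenylated RNA of 4 samples of morulae, 2 per group, was turned into cDNA with SMART-Seq v4 and into libraries with Nextera XT, per the labels' protocols. This preparation does not keep strand. HTSeq 0.12.4, Cufflinks 2.2.1, DESeq2, edgeR, RSEM and STAR, and the build mm9, are listed per the submitters' processing notes; the sources used here give neither their roles nor the annotation. The authors deposited 1 table, a DESeq2 comparison per the file headers. It holds a mean normalized count (a signal: read counts after scaling by size factors), a log2 fold change and its standard error, a Wald statistic (a score), a p-value and an adjusted p-value, all computed by the authors. No value per sample was given, so depth is unknown and no test per gene was rerun. Recomputing the Benjamini-Hochberg adjustment over the 12069 genes with an adjusted p returned the deposited values, and 1589 genes of lower mean (up to 8.00) have none.

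Members were matched by symbol and grouped by role; members and lists were chosen with earlier results of these data known. Named by rule were called members, and the 4 smallest p-values and the highest mean in each of 8 roles. Of the further pathway genes, the rule named those called and the 3 smallest p-values. Other members are named for their role, after their values were seen. So are the TFIIH, Mediator kinase module and PAF complex genes among the further pathway genes. Intervals are 1.96 standard errors. Transcript length and GC content came from GENCODE M21 (GRCm38), for 135 members and 99.3% of all genes, taking the APPRIS principal transcript of middle length. Levels per kilobase divide the mean normalized count by that length. Near-identical transcripts had at least 95% identity over at least 200 bases and 25% of the length. Promoter windows came from RefSeq (GRCm38.p6); no coordinates of mm9 are given. The length and GC trend was a quadratic surface fitted to 12000 genes, weighted by 1 over the squared standard error. Scaling alternatives recomputed Wald p-values with Benjamini-Hochberg adjustment. A group's median counted as moved when it changed sign or shifted by more than 0.1 on the log2 scale. The scripts were tested on simulated data. Python 3.11.15, pandas 2.3.3, scipy 1.17.1 and statsmodels 0.14.6 were used.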

Additional observations from a re-analysis of the deposited data

How the results depend on the processing

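The number of members called lower, 2 in the authors' deposited table, was 0 at an adjusted p under 0.01, 0 with Holm adjustment and 0 without the trend on transcript length and GC content. It was 1 with a fold of at least 1.5, 1 when centred on genes with mean normalized counts of at least 500, 5 at an adjusted p under 0.1 and 9 when centred on ribosomal protein genes. The number called higher, 0, was 1 at an adjusted p under 0.1 (Gtf3c1) and 0 under the other alternatives. Among all genes, 184 were called lower and 55 higher as deposited. Centring on ribosomal protein genes gave 448 and 36, and trend removal 121 and 53. Centring on genes with means of at least 500 gave 142 and 82. The all-gene counts were 92 and 17 at an adjusted p under 0.01, and 270 and 125 at one under 0.1. They were 48 and 1 with Holm adjustment, and 131 and 44 with a fold of at least 1.5. The 9 members under ribosomal centring were Gtf2h2, Ints12, Med27, Med8, Taf12, Taf9, Tbp, Tbpl1 and Tcea1. Without the low-count filter the same 2 genes, Ints12 and Tbpl1, were called. Centred on ribosomal protein genes, the median log2 fold change was -0.1298 over all members, -0.1461 for Mediator, -0.1307 for polymerase II, -0.1334 for polymerase III, -0.2284 for TFIID, -0.1651 for other polymerase II factors, -0.2309 for polymerase III factors, -0.0930 for Integrator and 0.0598 for elongation factors, each lower by 0.11, as for all genes. Other medians that changed sign were 0.0156 for all members, 0.0147 for polymerase II and 0.0120 for polymerase III (centred on abundant genes), 0.0169 for Mediator (without the trend), and 0.0120 for polymerase III factors and -0.0272 for Integrator (without shared exons or copies). Of 120 recomputed values for 40 named genes, 101 kept their direction and side of the threshold. Reversed values belonged to genes close to 0: Gtf2h5 (0.037 centred on abundant genes, 0.0489 without the trend), Polr3k (0.0116 and 0.0887 likewise) and Gtf3c6 (-0.0667 centred on ribosomal protein genes). The cause was not tested. Leaving out samples needs values per sample and was not run. No paired analysis was possible because the table holds no value per sample. The alternative that left out members with shared exons or near-identical transcripts was chosen after seeing the data. Intervals reached a change of 1.5 times for 38 of 131 members, 13 of them with means of 500 or more.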
